A study of Caenorhabditis elegans with 4 samples.

Results

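The 6 genes described here encode the chromatin proteins that write or read methylation of histone H3 at lysine 27 and lysine 36 in the *C. elegans* germ line. They were chosen by name from the 42048 genes of the table: *mes-2*, *mes-3* and *mes-6*, which encode the subunits of the Polycomb repressive complex PRC2, *mes-4* and *met-1*, which encode methyltransferases of H3K36, and *mrg-1*, which encodes a chromodomain protein. All 6 genes were found in the table and tested. RNA was sequenced from whole embryos in 2 biological replicates from *meg-1(vr10)* worms fed *meg-2* dsRNA and 2 from N2 wild-type worms fed the empty vector L4440, all at 20°C from synchronized L1 larvae to adults. *meg-1* and *meg-2* encode disordered proteins of the condensates in germ plasm. *meg-1* carried the allele *vr10* and *meg-2* was depleted by feeding RNAi, so effects of the allele and of the RNAi cannot be told apart. Embryos were harvested from the adults by bleaching and extracted whole, and primordial germ cells are a small part of them. In such RNA, fewer cells with a transcript and less transcript per cell cannot be told apart.

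As background, PRC2 trimethylates H3K27, a mark of silent chromatin. MES-2 is the catalytic subunit and is homologous to Enhancer of zeste, MES-6 is a WD40 protein homologous to Extra sex combs, and MES-3 completes the worm complex. MES-4, an NSD-type enzyme, keeps H3K36 methylation on genes that were expressed in the parental germ line and can do so without transcription, whereas MET-1, homologous to yeast Set2, marks genes as they are transcribed. MRG-1 is homologous to human MRG15, which binds methylated H3K36. The 4 *mes* genes described here are named for maternal-effect sterility: mothers lacking them give offspring whose primordial germ cells degenerate, and MRG-1 from the mother is likewise needed for these cells. MES-2, MES-3, MES-6 and MES-4 are known for keeping the X chromosome silent in the germ line.

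The deposited values are the mean of each genotype in fpm, which are read counts scaled by size factors and to a common library total. Whole reads of each library were recovered from these means, and the libraries of a genotype are called A and B because the replicate numbers of the labels could not be assigned to them. The libraries held between 20662429 and 26017429 reads on genes, and 3 reads, the limit that a count of 0 allows, were between 0.114 and 0.149 fpm. Levels are given in fpm per kb of gene length, so that genes can be compared. Of 42048 genes, 13367 had a mean of at least 2 fpm per kb and were tested with limma on log2(fpm per kb + 2), and 11196 of them were protein-coding. A gene passed with a *P*-value below 0.05 after Benjamini-Hochberg adjustment over all tested genes. The labels were checked on the targeted genes: *meg-1* was covered by 19 and 18 reads in *meg-1 meg-2* embryos, against 1933 and 2423 in wild-type embryos, and *meg-2* had a mean level 0.325 times that of wild type. Transcripts of sperm and of yolk from the adult intestine were near 0, with summed levels of at most 1.01 fpm per kb over 6 sperm genes and 0.606 fpm per kb over 6 yolk genes in any library, and *msp-10* and *ssp-9* had 0 reads in every library. Among tested protein-coding genes, the SD of the log2 difference was 0.14 within *meg-1 meg-2* and 0.281 within wild type. Between genotypes, wild-type library B gave 0.285 when compared with *meg-1 meg-2* library A and 0.278 with B. For wild-type library A the same comparisons gave 0.424 and 0.421. The wild-type pair was thus about as far apart as wild-type library B was from *meg-1 meg-2*, which limits every comparison of the genotypes here.

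All 6 transcripts were present at a level above the middle of the tested protein-coding genes in whole embryos. *mrg-1* was the most abundant, at 259 ± 9.53 fpm per kb in *meg-1 meg-2* and 202 ± 17.5 fpm per kb in wild type (SD, *n*=2 each), above 96.2% of tested protein-coding genes. *mes-2*, which encodes the catalytic subunit of PRC2, was the least abundant of the 6 and lay above 59.1% of them. The remaining genes *mes-3*, *mes-4*, *met-1* and *mes-6* lay above between 73.1% and 82.3%. In *meg-1 meg-2* the order of mean levels was *mrg-1*, *mes-3*, *mes-4*, *met-1*, *mes-6* and *mes-2*, and in wild type *met-1* stood before *mes-4*. In wild type *mes-3* had 72.3 ± 11.8, *met-1* had 65.5 ± 3.51 and *mes-4* had 63.7 ± 9.89 fpm per kb (SD, *n*=2 each). Within each wild-type library *mes-3* was above both of the others, at 64.0 fpm per kb in A and 80.6 in B. *met-1*, at 63.0 in A and 67.9 in B, was above *mes-4*, at 56.7 and 70.7, in library A only. In *meg-1 meg-2*, *mes-3* at 80.5 ± 4.60 fpm per kb was above *mes-4* at 78.4 ± 0.784 in library A and below it in library B. *met-1*, at 71.5 ± 0.123 fpm per kb, lay below both libraries of each (SD, *n*=2 each).

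**Figure D1:**
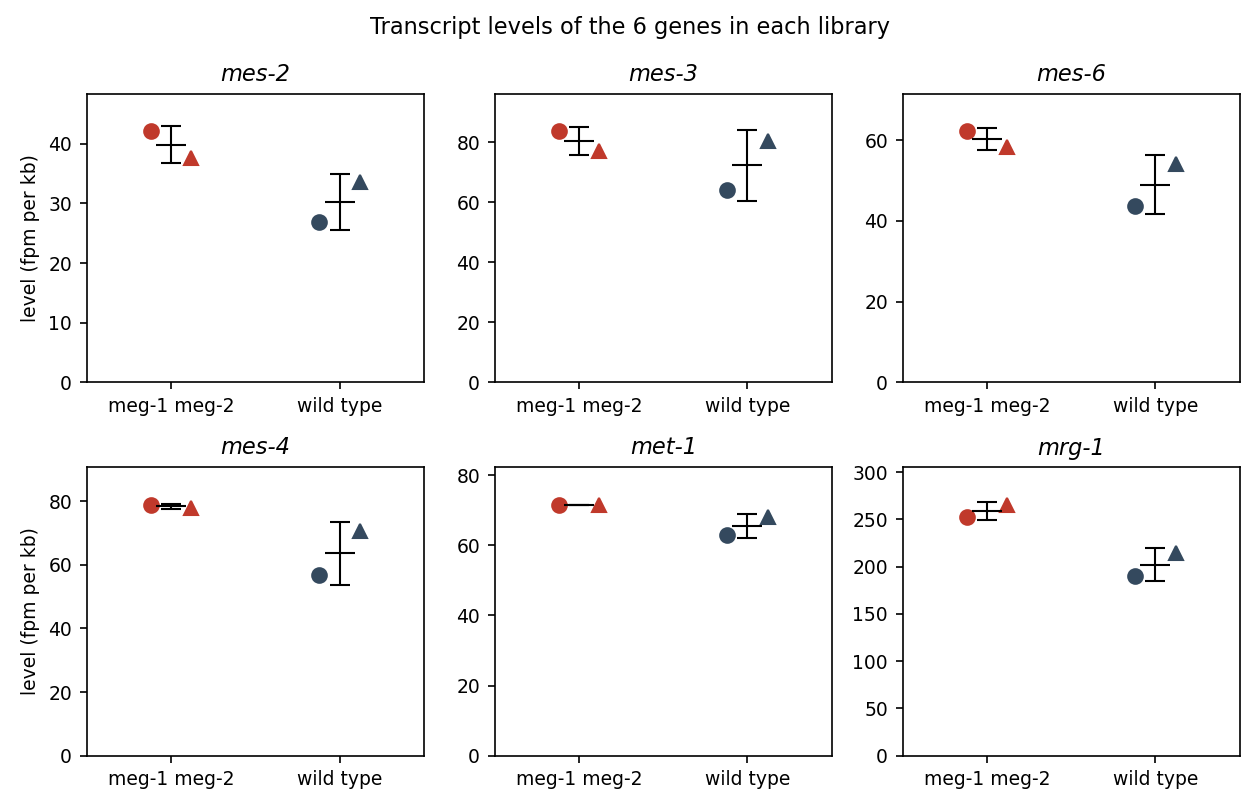
Transcript level in fpm per kb (y axes, starting at 0) of each of the 6 genes in *meg-1 meg-2* (red) and wild-type (blue) libraries, with library A as a circle, library B as a triangle, and the mean with its SD as a black bar. For each gene the lowest point is wild-type library A, and for *mes-3* wild-type library B, at 80.6, lies between the *meg-1 meg-2* libraries, at 83.8 and 77.3.

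None of the 6 transcripts passed the test between genotypes. Their mean fpm in *meg-1 meg-2* was from 1.09 to 1.32 times that of wild type, with limma log2 fold changes from 0.12 to 0.38, and 0 of the 6 had an adjusted *P*-value below 0.05, where 2.02% of all tested genes passed as higher and 1.31% as lower. At an unadjusted *P*-value below 0.05, 2 of the 6 were higher, *mes-2* and *mrg-1*, where 17.2% of all tested genes were. On the recovered reads, edgeR's quasi-likelihood test passed 1 of the 6 after adjustment, *mrg-1*, where 8.84% of all tested genes were higher, and DESeq2 passed 2, *mes-2* and *mrg-1*, where 14.6% of the genes with an adjusted *P*-value were higher. For 5 of the 6 both *meg-1 meg-2* libraries lay above both wild-type libraries, which held for 33.9% of all tested genes. The median log2 fold change was 0.30 over the 6 and 0.03 over all tested protein-coding genes. With 2 libraries a genotype, the smallest two-sided *P*-value of an exact permutation test is 0.333, and the limma values draw on a spread estimated over all tested genes. The study's methods give a plating of synchronized L1 larvae for each replicate. They do not say whether replicates or genotypes shared a synchronized batch.

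PRC2 is described first. *mes-2* (WBGene00003220, chromosome II, 14383973 to 14388454 of WBcel235, plus strand) was covered by 2211 and 1756 reads of libraries A and B of *meg-1 meg-2*, against 1642 and 2032 reads of libraries A and B of wild type. At equal scaling these were levels of 42.1 and 37.6 fpm per kb in *meg-1 meg-2* and 26.9 and 33.6 fpm per kb in wild type. Both *meg-1 meg-2* libraries lay above both wild-type libraries, and wild-type library A was the lowest. The log2 fold change of *mes-2* was 0.38 (standard error 0.14, 95% interval 0.05 to 0.71, adjusted *P*=0.130 in limma), the largest of the 6. This value rests on wild-type library A more than on B, since the mean of *meg-1 meg-2* was 1.48 times wild-type library A and 1.19 times wild-type library B. *mes-2* passed in limma with only protein-coding genes tested (adjusted *P*=0.0443). In that setting more genes also lay past the threshold and 1.5-fold as higher than with all genes tested, but *mes-2* itself was below 1.5-fold. The share of genes passing there without a minimum fold change is not given here. The log2 fold change was 0.23 without wild-type library A and 0.53 without library B. Leaving out a wild-type library leaves no wild-type spread to measure, so only the log2 fold change is given for such fits of the 6 genes.

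*mes-6*, the Extra sex combs homologue (WBGene00003224, chromosome IV, 8511284 to 8513469, plus strand), was covered by 1942 and 1620 *meg-1 meg-2* reads, against 1587 and 1949 wild-type reads. Its levels were 62.3 and 58.4 fpm per kb in *meg-1 meg-2* and 43.7 and 54.2 fpm per kb in wild type, without overlap between the genotypes. The log2 fold change was 0.30 (standard error 0.13, 95% interval −0.01 to 0.61, adjusted *P*=0.184 in limma). It was 0.15 without wild-type library A, and 0.45 without wild-type library B. In WBcel235, the span of *mes-6* from start to end overlaps that of the protein-coding gene *C09G4.4* by 491 bp on the same strand. Whether exons of both lie in that stretch was not checked, so it is not known whether any counted reads are ambiguous. *C09G4.4* was covered by 469 and 390 *meg-1 meg-2* reads, against 398 and 460 wild-type reads.

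*mes-3* encodes the remaining subunit (WBGene00003221, chromosome I, 4996835 to 5003202, plus strand) and was covered by 4294 and 3520 *meg-1 meg-2* reads, against 3816 and 4769 wild-type reads. The levels, 83.8 and 77.3 fpm per kb in *meg-1 meg-2* and 64.0 and 80.6 fpm per kb in wild type, overlapped between the genotypes, which was true of no other member. The log2 fold change was 0.16 (standard error 0.14, 95% interval −0.16 to 0.48, adjusted *P*=0.463 in limma), and it was −0.0033 with wild-type library A left out. *mes-3* is thus the member of PRC2 whose values in the genotypes lay closest together.

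The proportions of the PRC2 transcripts do not depend on how libraries are scaled. *mes-3* was 1.99 and 2.05 times *mes-2* per length in the *meg-1 meg-2* libraries, against 2.38 and 2.40 times in the wild-type libraries. *mes-6* was 1.48 and 1.55 times *mes-2* in *meg-1 meg-2*, against 1.63 and 1.61 times in wild type. *mes-3* was 1.35 and 1.32 times *mes-6* in *meg-1 meg-2*, against 1.46 and 1.49 times in wild type. For each of these 3 ratios both *meg-1 meg-2* libraries lay below both wild-type libraries, and the wild-type libraries, which differed in the level of each gene, were close to each other in the ratios. The ratios are not independent, since *mes-3* over *mes-2* is the product of the others, and they follow the order of the log2 fold changes. How many other pairs of genes have ratios without overlap was not counted. The ratios were chosen after the levels were seen and were not tested.

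Of the H3K36 methyltransferases, *mes-4* (WBGene00003222, chromosome V, 13433050 to 13437545, minus strand) was covered by 4811 and 4216 *meg-1 meg-2* reads, against 4020 and 4972 wild-type reads. Its levels were 78.9 and 77.8 fpm per kb in *meg-1 meg-2*, nearly the same in both, and 56.7 and 70.7 fpm per kb in wild type. The genotypes did not overlap, and wild-type library B was closer to the *meg-1 meg-2* libraries than to wild-type library A. The same closeness of wild-type library B was seen for *mes-3*, *mes-6* and *met-1*. The log2 fold change of *mes-4* was 0.30 (standard error 0.13, 95% interval −0.01 to 0.61, adjusted *P*=0.181 in limma). It was 0.14 without wild-type library A, and 0.45 without wild-type library B.

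*met-1* (WBGene00016603, chromosome I, 4254197 to 4264699, plus strand) had the most reads of the 6, with 7791 and 6908 in *meg-1 meg-2* and 7970 and 8530 in wild type. Per length it stood at 71.6 and 71.4 fpm per kb in *meg-1 meg-2* and 63.0 and 67.9 fpm per kb in wild type. The genotypes did not overlap, with nearly the same level in either library of *meg-1 meg-2*. The log2 fold change was 0.12 (standard error 0.10, 95% interval −0.12 to 0.37, adjusted *P*=0.452 in limma), the smallest of the 6, and it was −0.0062 after quantile normalization. *mes-4*, which maintains the mark without transcription, was 1.10 and 1.09 times *met-1* per length in *meg-1 meg-2*, against 0.900 and 1.04 times in wild type. This ratio thus lay between 0.900 and 1.10 in every library, with both *meg-1 meg-2* libraries above both wild-type libraries. The ratio was not tested, and how many other pairs of genes do the same was not counted.

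*mrg-1* (WBGene00003406, chromosome III, 12871029 to 12874656, minus strand) was covered by 5778 and 5410 *meg-1 meg-2* reads, against 5054 and 5669 wild-type reads. Its levels were 252 and 266 fpm per kb in *meg-1 meg-2*, against 189.6 and 214 fpm per kb in wild type, without overlap. The log2 fold change was 0.36 (standard error 0.11, 95% interval 0.10 to 0.62), and its limma adjusted *P*-value, 0.0997, was the lowest of the 6. With only protein-coding genes tested this *P*-value was 0.0380, in a setting where more genes also lay past the threshold and 1.5-fold as higher. *mrg-1* itself was below 1.5-fold, and the share of genes passing there without a minimum fold change is not given here. The log2 fold change was 0.27 without wild-type library A and 0.44 without wild-type library B. *mrg-1* made up 42.7% and 45.2% of the summed level of the 6 genes in *meg-1 meg-2*, against 42.7% and 41.1% in wild type. It was therefore more abundant per length than any of the enzymes in each library, at between 3.03 and 3.41 times *mes-4*.

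The members were deeply covered. The fewest reads of any member in any library were 1587, for which the counting error is 2.51%, whereas wild-type library B exceeded wild-type library A by between 1.08 times (*met-1*) and 1.26 times (*mes-3*). The lower ends of the 95% intervals lay between −0.16 (*mes-3*) and 0.10 (*mrg-1*). The upper ends were below the log2 of 1.5-fold, 0.58, for *mes-3* and *met-1* among the 6, so a 1.5-fold rise lay within the intervals of *mes-2*, *mes-6*, *mes-4* and *mrg-1*.

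The difference between the wild-type libraries was also seen in transcripts that mark oocytes and early embryos. For each of 12 maternal transcripts, among them *pos-1*, *mex-5* and *oma-1*, wild-type library B was above wild-type library A, by 1.24 to 1.43 times, and the libraries of *meg-1 meg-2* both exceeded those of wild type, as for 33.9% of all tested genes. Their summed level was 1308 and 1314 fpm per kb in *meg-1 meg-2*, against 774 and 995 fpm per kb in wild type, and 2 of the 12, *oma-2* and *cbd-1*, passed the limma test as higher, where 2.02% of all tested genes did. edgeR passed 8 of them, where 8.84% of all tested genes passed as higher, and DESeq2 10, where 14.6% of the genes with an adjusted *P*-value did. Muscle transcripts were in the opposite order, with wild-type library B at 0.586 to 0.720 times library A, whereas this ratio was on both sides of equality, at 0.808 to 1.11, for epidermal transcripts. For each of 6 body-wall muscle transcripts and 5 tested epidermal and cuticle transcripts both *meg-1 meg-2* libraries lay below both wild-type libraries, which held for 30.3% of all tested genes, and 0 of them passed in limma, where 3 muscle and 5 epidermal genes were lower at an unadjusted *P*-value below 0.05, as 12.0% of all tested genes were. edgeR passed 3 of the muscle genes (*unc-15*, *unc-54* and *lev-11*) and 5 of the epidermal genes as lower, where 6.54% of all tested genes passed. DESeq2 passed 3 of the muscle genes (*unc-15*, *mlc-3* and *lev-11*) and 5 of the epidermal genes, where 7.46% of the genes with an adjusted *P*-value passed. The summed muscle level was 496 and 490.0 fpm per kb in *meg-1 meg-2* and 896 and 589.6 fpm per kb in wild type, and the summed level of the 6 listed epidermal genes, of which *rol-6* was too low to test, was 2355 and 2542 fpm per kb in *meg-1 meg-2* and 3499 and 3155 fpm per kb in wild type. The part of these differences in the values of the 6 genes was not tested.

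Relative to the 12 maternal transcripts, the 6 genes stood lower in *meg-1 meg-2* than in wild type. *mes-4* was 6.03% and 5.92% of their summed level in *meg-1 meg-2*, against 7.33% and 7.10% in wild type. *met-1* was 5.47% and 5.43% in *meg-1 meg-2*, against 8.14% and 6.83% in wild type. *mes-2*, at 3.22% and 2.86% in *meg-1 meg-2* and 3.48% and 3.37% in wild type, was closest to the wild-type share. The mean share in *meg-1 meg-2* was between 0.729 times (*met-1*) and 0.889 times (*mes-2*) that of wild type, and the genotypes did not overlap for any of the 6 genes. How many of all tested genes do the same was not counted. The summed level was itself higher in *meg-1 meg-2*, at 1308 and 1314 fpm per kb against 774 and 995 in wild type. The share of any gene that rises less than this sum is therefore lower, so the lower shares say nothing particular to the 6 genes. This measure was chosen after the levels were seen.

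**Figure D2:**
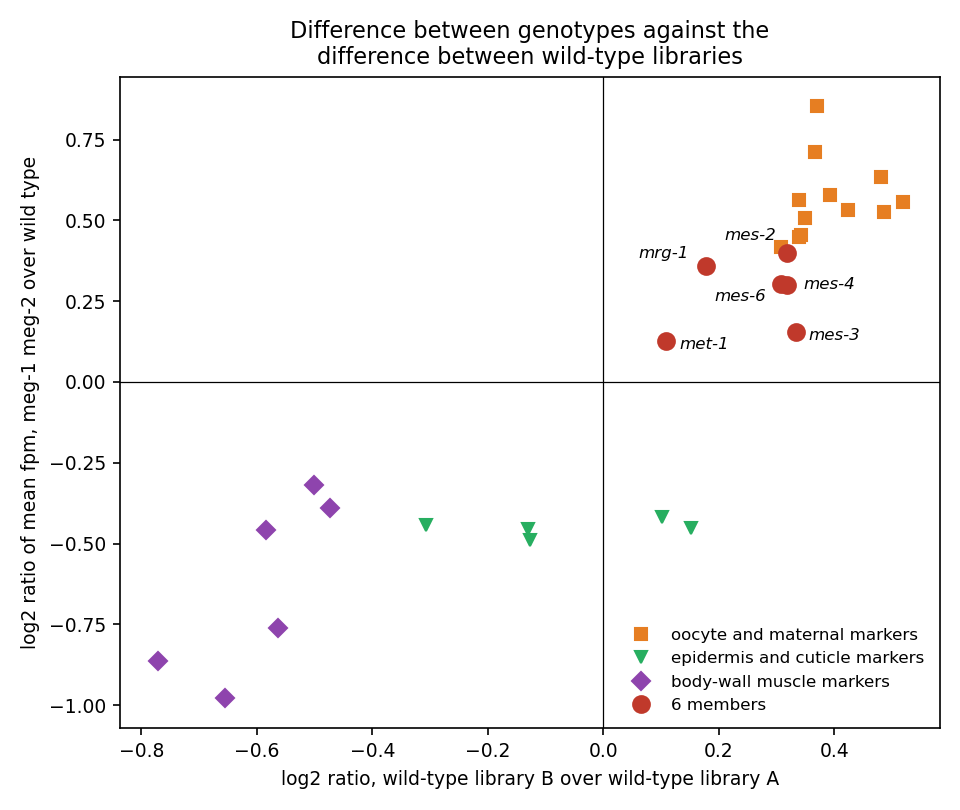
Each point is a gene: the x axis gives the log2 ratio of wild-type library B over wild-type library A and the y axis the log2 ratio of mean fpm in *meg-1 meg-2* over wild type, for the 6 members (red circles), 12 oocyte and maternal markers (orange), 5 epidermis and cuticle markers (green) and 6 body-wall muscle markers (purple). The members, with genotype ratios of 1.09 to 1.32 before taking logs, lie on the side of the maternal markers, which have ratios of 1.34 to 1.81. Both axes use wild-type library A, so a low value in it raises a gene on both.

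The other genes of the pathway were 29 genes, listed by role. In limma with the stated settings, 0 of the 29 passed after adjustment in either direction. At an unadjusted *P*-value below 0.05, 8 were higher and 3 lower, where 17.2% and 12.0% of all tested genes were. The median log2 fold change of the 29 was 0.15. After adjustment, edgeR passed 3 as higher (*sop-2*, *mig-32* and *set-12*) and 3 as lower (*jmjd-3.1*, *spat-3* and *epc-1*), where 8.84% and 6.54% of all tested genes passed. DESeq2 passed 5 as higher (*sop-2*, *mig-32*, *rba-1*, *lin-53* and *set-12*) and 2 as lower (*jmjd-3.1* and *set-18*), where 14.6% and 7.46% of the genes with an adjusted *P*-value passed. Of the 29, 16 had both *meg-1 meg-2* libraries above both wild-type libraries and 7 had both below, where 33.9% and 30.3% of all tested genes did. Leaving out a library moved the median of the 29, to 0.02 without wild-type library A and 0.27 without wild-type library B.

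The enzymes that could add H3K36 methylation beside MES-4 and MET-1 had values in both directions. *set-12*, a SET domain gene on the X chromosome, had 27.5 and 28.8 fpm in *meg-1 meg-2* and 14.8 and 19.1 fpm in wild type, a log2 fold change of 0.67 (standard error 0.15, adjusted *P*=0.0562 in limma), the largest of the 29. *set-18*, a SET domain gene related to human SMYD enzymes, had 94.9 and 88.1 fpm in *meg-1 meg-2* and 132 and 104 fpm in wild type, a log2 fold change of −0.35 (adjusted *P*=0.151 in limma). *lin-59*, homologous to fly Ash1, was at 0.08. The H3K36 demethylases *jmjd-2* and *jmjd-5* were at 0.08 and 0.27. None of the 5 passed in limma with the stated settings, and *set-12* was the only gene of these lists that lay past 1.5-fold. With all libraries, *set-12* passed in limma with a minimum of 10 fpm per kb, robust variances or protein-coding genes only. It also passed with total-read or median-ratio scaling. *set-18* passed only with that minimum. The shares of genes passing in these settings are not given here.

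The enzymes that remove methyl groups from H3K27 oppose PRC2. *jmjd-3.1*, an X-linked gene of the JMJD3 and UTX family, had 155 and 156 fpm in *meg-1 meg-2* and 215 and 211 fpm in wild type. The libraries of each genotype were close together and the genotypes did not overlap, and the log2 fold change was −0.44 (standard error 0.10, adjusted *P*=0.0618 in limma). It stayed between −0.45 and −0.43 when any 1 library was left out in limma. With all libraries, *jmjd-3.1* passed in limma with a minimum of 10 fpm per kb, robust variances or protein-coding genes only. It also passed with total-read, median-ratio or quantile scaling. It did not pass with other pseudocounts, without a filter or without trend. The shares of genes passing in these settings are not given here. *utx-1*, also of this family, was at 0.15 (0.02 without wild-type library A and 0.27 without B), *jmjd-3.2* at 0.18 (0.013 without A and 0.36 without B) and *jmjd-3.3* at 0.29 (0.15 without A and 0.44 without B). *jmjd-1.2*, which acts on both H3K9 and H3K27, was at −0.03. *jmjd-3.1* was the only gene of the 5 with both *meg-1 meg-2* libraries below both wild-type libraries. This held for 30.3% of all tested genes and for 41.9% of the tested protein-coding genes on the X chromosome.

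Polycomb proteins outside PRC2 include MIG-32 and SPAT-3, homologous to subunits of PRC1, the complex that ubiquitinates histone H2A. *mig-32* had 133 and 128 fpm in *meg-1 meg-2* and 94.0 and 109 fpm in wild type, a log2 fold change of 0.36 (adjusted *P*=0.109 in limma). Its span overlaps that of *F11A10.6* by 366 bp on the same strand, and shared exons were not checked. *spat-3*, the RING1 homologue, had 196 and 199 fpm in *meg-1 meg-2* and 226 and 230.4 fpm in wild type, a log2 fold change of −0.20 (adjusted *P*=0.272 in limma). The transcripts of the 2 partners thus lay on opposite sides of wild type. *sop-2*, which encodes a SAM domain protein that represses Hox genes, had 167 and 179 fpm in *meg-1 meg-2* and 128 and 140.0 fpm in wild type, a log2 fold change of 0.36 (adjusted *P*=0.0977 in limma). *sor-1* and *sor-3* were at 0.03 and 0.16.

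Histone-binding proteins of the RbAp46/48 type are PRC2 subunits in flies and mammals, and the worm has LIN-53 and RBA-1. *lin-53* had 663 and 655 fpm in *meg-1 meg-2* and 433 and 565 fpm in wild type, a log2 fold change of 0.41 (adjusted *P*=0.122 in limma). *rba-1* had 196 and 189.7 fpm in *meg-1 meg-2* and 130.4 and 167 fpm in wild type, a log2 fold change of 0.38 (adjusted *P*=0.127 in limma). Both stood close to *mes-2* in their log2 fold change, and in both wild-type library A was the lowest.

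MRG-1 and its homologues work with the SIN3 deacetylase complex and with the acetyltransferase complex of MYS-1, the Tip60 homologue. Of the SIN3 complex, the scaffold gene *sin-3* was at 0.27, the deacetylase gene *hda-3* at 0.29 and *athp-1* at 0.06. Of the MYS-1 complex, *gfl-1* was at 0.36, *mys-1* itself at 0.25, *trr-1*, the TRRAP homologue, at 0.10, *ssl-1* at −0.04 and *epc-1*, the Enhancer of Polycomb homologue, at −0.23. None of the 8 passed in limma with the stated settings, and the values ran from below to above the median of all protein-coding genes. *mes-1*, which shares the maternal-effect sterile name but encodes a receptor tyrosine kinase-like protein, had 18.6 and 19.4 fpm in *meg-1 meg-2* and 12.3 and 15.8 fpm in wild type, a log2 fold change of 0.33 (adjusted *P*=0.257 in limma).

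MES-2, MES-3 and MES-6 are known to keep Hox genes silent outside their domains. *lin-39* had 6.90 and 7.62 fpm in *meg-1 meg-2* and 10.6 and 10.7 fpm in wild type, a log2 fold change of −0.47 (standard error 0.13, adjusted *P*=0.0817 in limma). *mab-5* had 7.34 and 6.97 fpm in *meg-1 meg-2* and 8.94 and 8.36 fpm in wild type, a log2 fold change of −0.24. *egl-5* had 4.11 and 4.03 fpm in *meg-1 meg-2* and 5.25 and 5.06 fpm in wild type, a log2 fold change of −0.26. For each of the 3 both *meg-1 meg-2* libraries lay below both wild-type libraries, where 30.3% of all tested genes did. After adjustment 0 of the 3 passed as lower in limma, edgeR or DESeq2, where 1.31%, 6.54% and 7.46% of genes passed, and 1 of the 3, *lin-39*, had an unadjusted *P*-value below 0.05 in each of these tools, where 12.0% of all tested genes were lower at this level in limma.

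**Figure D3:**
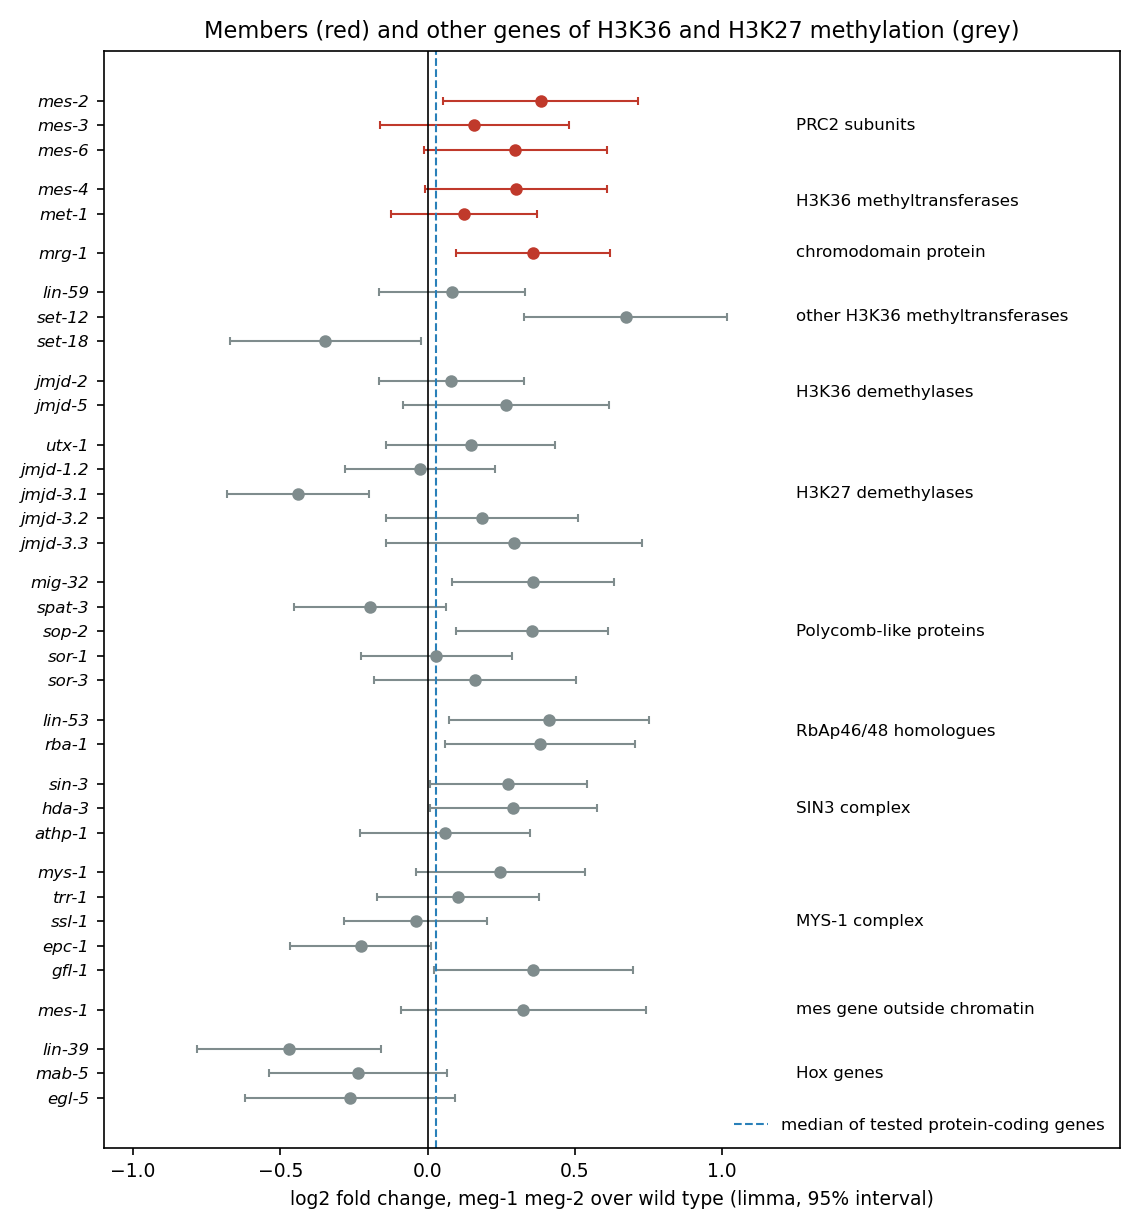
Log2 fold change between *meg-1 meg-2* and wild-type embryos (x axis; positive values are higher in *meg-1 meg-2*) with its 95% interval from limma, before adjustment for the number of genes, for the 6 members (red) and 29 other genes of the pathway (grey), grouped by list, with the median of the tested protein-coding genes as a dashed line at 0.03. The members lie between 0.12 and 0.38, and the 29 others between −0.47 (*lin-39*) and 0.67 (*set-12*).

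The 6 genes lie on 5 autosomes and none on the X chromosome, whereas 8 of the 29 other genes are X-linked. Over the whole table, the 1612 tested protein-coding genes of the X chromosome had log2 fold changes with a median of −0.12, against 0.06 for the 9584 on autosomes. Of the X-linked genes, 16.6% had both *meg-1 meg-2* libraries above both wild-type libraries and 41.9% had both below, against 41.4% and 27.1% of the autosomal genes. The X chromosome gave 10.3% and 10.5% of protein-coding reads in *meg-1 meg-2*, against 12.0% and 11.4% in wild type. The difference of the medians, −0.18, was −0.10 with wild-type library A left out and −0.28 without wild-type library B, so it moved by over 1.5 times with each of these libraries. Muscle and epidermal markers, which were lower in the same libraries, are given above, and their part in this difference was not tested.

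**Figure D4:**
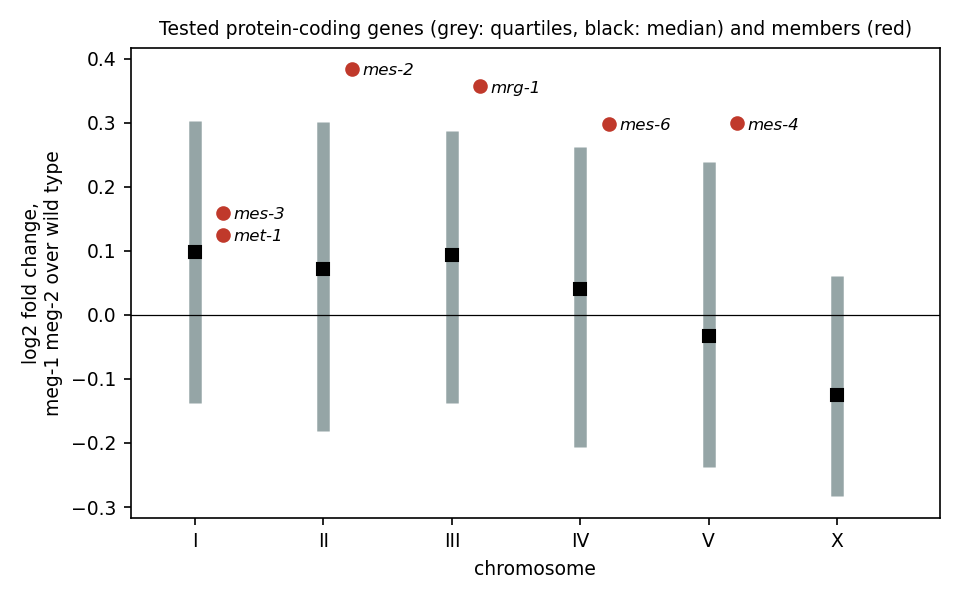
Log2 fold change between *meg-1 meg-2* and wild-type embryos (y axis; positive values are higher in *meg-1 meg-2*) for the tested protein-coding genes of each chromosome (x axis), as the median (black square) and the range between the lower and upper quartiles (grey bar), with the members of that chromosome in red. The median is lowest for the X chromosome, at −0.12, where none of the 6 members lies.

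For each member, the tested protein-coding gene closest to it over the 4 libraries was found as the smallest Euclidean distance on log2(fpm per kb + 2). These were *mex-1* for *mes-2* (distance 0.07), *F59A2.5* for *mes-3* (0.06), *homt-1* for *mes-6* (0.03), *snpc-4* for *mes-4* (0.03), *mrpl-9* for *met-1* (0.05) and *rpb-6* for *mrg-1* (0.08). *mex-1*, which encodes a maternal zinc-finger protein of the germ plasm, had 41.2 and 38.8 fpm per kb in *meg-1 meg-2* and 28.0 and 33.4 fpm per kb in wild type. *snpc-4* had 79.7 and 78.8 fpm per kb in *meg-1 meg-2* and 57.3 and 70.3 fpm per kb in wild type. The distance uses level and pattern together, over 4 libraries, and is a description.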

How the data were processed

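RNA of 4 libraries, 2 per genotype, was prepared from 1 µg of total RNA with 12 cycles of PCR. According to the study's methods and the submitters' processing notes, the authors aligned reads to ce10 with HISAT2, counted them with HTSeq and scaled them in DESeq2, and versions, annotation and strand setting are not given in the sources used here. The authors deposited for each genotype a signal in fpm, the mean of 2 libraries after scaling by size factors. The FPKM that the authors deposited is this mean over the length in bp, 1000 times smaller than FPKM per kb. The deposited fold changes and adjusted *P*-values were not used.

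Whole reads were recovered by searching, for every gene and genotype, the 2 read counts whose scaled sum equals the deposited mean. With a relative tolerance of 8e-15 exactly 1 solution existed for 100% of wild-type and 99.998% of *meg-1 meg-2* means. The remaining gene, *rrn-2.1*, was settled by how size factors are defined. The search was also tested on simulated reads.

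limma 3.58.1 (R 4.3.3; lmFit, eBayes with trend, no block) was run on log2(fpm per kb + 2) over the 4 libraries for genes with a mean of at least 2 fpm per kb, and fold changes on this scale understate the change of low genes. A call in counts over all genes also required 1.5-fold. edgeR 4.0.16 and DESeq2 1.42.0 were run on the recovered reads as alternatives, beside other pseudocounts, filters and scalings, limma without trend or with robust variances, protein-coding genes only and each library left out. Genes named are the 6 members, *meg-1* and *meg-2*, the pathway and marker lists, and the gene closest to each member. Members and lists were chosen with earlier results of these data known. Of 42048 identifiers, 41759 matched WBcel235, from which coordinates were taken, and none was converted. Limits for a count of 0 cover counting error only.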

Additional observations from a re-analysis of the deposited data

How the results depend on the processing

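The log2 fold changes of *mes-2*, *mes-6*, *mes-4* and *mrg-1* kept their sign under every alternative run, and for *mes-2* and *mrg-1* the settings decided which side of the threshold they fell on. Leaving out a library leaves no spread within its genotype to measure, so passes of members in those fits are not given. Genes with a mean of at least 10 fpm per kb, protein-coding genes only and DESeq2 gave *mes-2* values of 0.38, 0.38 and 0.40 that passed, with adjusted *P*-values of 0.0297, 0.0443 and 0.0354. The same settings and edgeR gave *mrg-1* values of 0.36, 0.36, 0.36 and 0.29 that passed. A minimum of 10 fpm per kb, protein-coding genes only and DESeq2 also gave more genes called higher over all, as given below. Those calls also required 1.5-fold, which *mes-2* and *mrg-1* did not reach in any of these settings. The share of genes passing without a minimum fold change is given above for edgeR and DESeq2, and is not given for the other settings. With each library left out in turn, the log2 fold change was between 0.23 and 0.53 for *mes-2*, −0.0033 and 0.32 for *mes-3*, 0.15 and 0.45 for *mes-6*, 0.14 and 0.45 for *mes-4*, 0.07 and 0.18 for *met-1* and 0.27 and 0.44 for *mrg-1*, with the lowest without wild-type library A and the highest without wild-type library B. *mes-3* changed sign without wild-type library A, and *met-1*, at −0.0062, after quantile normalization. The causes were not tested.

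*meg-1* did not pass without a filter on low values (−4.21) or without wild-type library A (−4.37, adjusted *P*=0.0959 in limma), and its range with a library left out was −4.37 to −4.04. *meg-2* did not pass with a pseudocount of 0.2 (−1.56), without a filter (−1.17), after quantile normalization (−1.02), without trend (−1.17) or without wild-type library A (−1.33, adjusted *P*=0.0980 in limma), and its range was −1.33 to −0.999. Genes past 1.5-fold and the threshold were 256 higher and 165 lower, and became 11 and 18 with a pseudocount of 0.2, 97 and 33 with 20, 0 and 0 without a filter, 15 and 65 without trend, 471 and 259 with robust variances and 562 and 523 with unadjusted *P*-values. They were 418 higher with a minimum of 10 fpm per kb, 480 with protein-coding genes only and 537 with DESeq2, and 326 lower with edgeR. With a library left out they were 0 to 1046 higher and 0 to 615 lower, with 0 of each without wild-type library A. Of the 29 pathway genes 0 were called higher, and 1 was called with a minimum of 10 fpm per kb, scaling by total reads, median-ratio scaling, robust variances, protein-coding genes only, edgeR, DESeq2 and unadjusted *P*-values, with 0 to 2 when a library was left out. Among them, signs changed for *lin-59* (−0.016) and *jmjd-2* (−0.036) after quantile normalization and for *sor-1* with total reads (−0.035), median-ratio scaling (−0.024), quantile normalization (−0.072) and edgeR (−0.036). They changed for *athp-1* with total reads (−0.0042) and edgeR (−0.0027) and for *trr-1* after quantile normalization (−0.068). With a library left out the ranges were −0.11 to 0.052 for *jmjd-1.2*, −0.017 to 0.078 for *sor-1*, −0.024 to 0.34 for *sor-3*, −0.018 to 0.14 for *athp-1*, −0.015 to 0.22 for *trr-1* and −0.089 to 0.0073 for *ssl-1*.

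No paired analysis was possible because each deposited column is the mean of a genotype and carries no replicate number. There were 2 libraries per genotype. For the 6 genes wild-type library B was 1.08 to 1.26 times library A, whereas the largest counting error was 2.51%. Maternal, muscle and epidermal markers also differed between the genotypes, and their part in the values of these genes was not tested.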
